A study of Drosophila melanogaster with 56 samples.

Results

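The maxillary palp and proboscis of Drosophila melanogaster were compared between 48 h and 24 h of fasting, so the comparison covers the second day without food. The members are the 9 arrays that the titles give to this tissue at those times (4 at 48 h, 5 at 24 h), out of 56 arrays in the series, with all 18769 non-control probe sets. Another 5 arrays of the same tissue at 0 h gave the level before fasting. The palp and proboscis were combined in each sample, and each array came from a pool of flies. Pools 4, 6, 7 and 8 were sampled at both 24 h and 48 h. Pool 5 gave a 24 h array and none at 48 h. The sources used here do not give the strain, sex or age of the flies, and the design lists no flies that were fed up to 24 or 48 h, so that lack of food and elapsed time cannot be told apart. For comparison, head (heads without the chemosensory organs attached) had 5 arrays at 24 h and 4 at 48 h, and antenna had 5 at each time.

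The proboscis is the feeding organ. Its labellum carries taste bristles whose neurons express gustatory receptors for sugars and bitter compounds, and the maxillary palp beside it carries olfactory neurons. The tissue also holds muscle, cuticle-secreting epidermis, fat tissue and blood cells. In fasting insects, insulin signalling drops and the transcription factor FOXO becomes active, stored triglyceride and storage proteins are used up, and autophagy is induced. Ribosome production is one of the processes that nutrient signalling through TOR is known to control.

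All levels below are log2 signals, and a difference of 1 is a 2-fold change. A feature is a probe set, with each gene read from 1 probe set. Tissue markers were checked first. All 8 listed receptors and co-receptor of the palp's olfactory neurons passed the filter on dim signals, among them Orco, the odorant co-receptor, at 9.34 to 9.62 at 24 h and 9.12 to 9.61 at 48 h. Muscle markers averaged 12.3 to 12.5 at 24 h and 12.1 to 12.3 at 48 h. Photoreceptor markers, which belong to the eye, were also well above background: the 7 listed averaged 9.95 to 11.7 on the 24 h arrays and 10.4 to 10.9 on the 48 h arrays. All 11 ovary and egg markers were below 4 on all 9 arrays. Testis markers averaged 7.57 on 24 h array 2 and at most 3.82 on the other 24 h arrays. That array stood apart in general, with a residual spread of 0.629 against 0.191 to 0.376 on the other 8, and its values are given apart where a result rests on it. The mean of the gut genes Jon65Aiii, Mal-A1, Mal-A6 and alphaTry was 12.5 on 0 h array 2 and 6.43 to 6.64 on the other 0 h arrays. It was 8.505 on 24 h array 4 and at most 7.38 on the other 24 h arrays. The 0 h arrays enter the first-day values. The excess of 3′ over 5′ signal on control genes, a sign of RNA integrity, was 1.85 to 4.655 at 0 h, 2.97 to 5.81 at 24 h and 3.21 to 4.82 at 48 h.

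Of 9031 features with a log2 signal of at least 4 on at least 4 of the 14 palp arrays, 381 differed between 48 h and 24 h at an adjusted p of 0.05 in limma (4.22%). Arrays are numbered by replicate within a time. Of these features, 194 rose (2.15%) and 187 fell (2.07%), and 46 rises (0.509%) and 42 falls (0.465%) were at least 2-fold. The median difference over all 9031 features was 0.0453, with 5292 positive and 3739 negative. The 4 arrays at 48 h did not overlap the 5 at 24 h for 342 of the 381, and for 882 of all features (9.77%). Without adjustment, 1678 features had a p under 0.05. The count depended strongly on single arrays. It was 162, 482, 165, 285 and 362 without 24 h arrays 1 to 5 in turn, and 154, 253, 298 and 90 without 48 h arrays 1 to 4 in turn. All 381 kept their sign in each of these fits. The first day, 24 h against 0 h, gave 2124 calls in the same tissue (23.5%), 993 up (11%) and 1131 down (12.5%), and shares the 24 h arrays. All 4 pools with both times were higher at 48 h for 1412 features (15.6%) and lower for 1399 (15.5%).

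**Figure D1:**
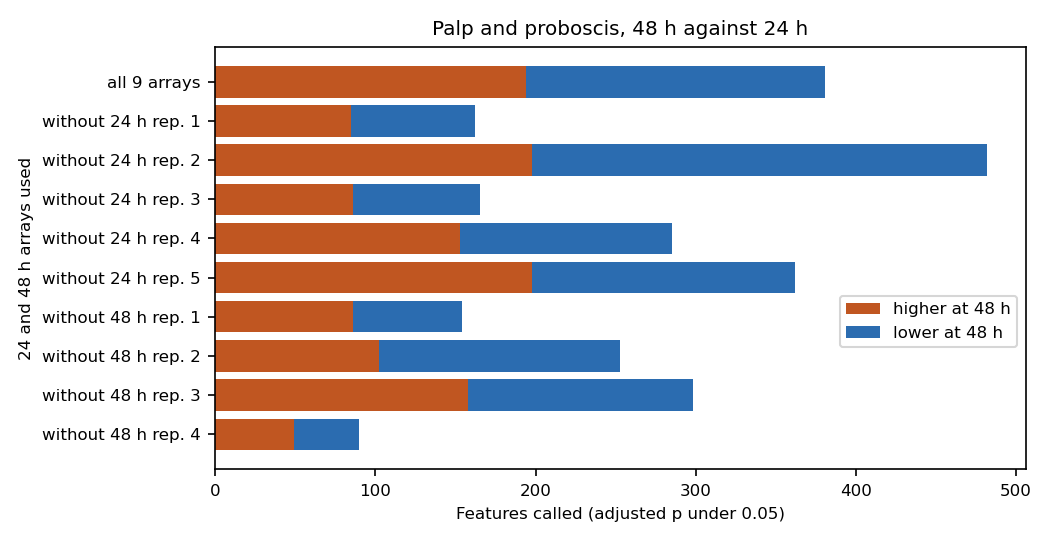
Number of features called at 48 h against 24 h (x axis) with all 9 arrays and with each array left out in turn (y axis), split into features higher and lower at 48 h. The count ran from 90 without 48 h array 4 to 482 without 24 h array 2, against 381 with all arrays.

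The clearest rise of the second day was in Pgant4, a polypeptide N-acetylgalactosaminyltransferase gene whose product starts mucin-type O-glycosylation. Pgant4 read 2.72 to 3.47 on the 0 h arrays. It read 9.98, 10.7, 9.99, 9.96 and 10.4 on the 24 h arrays and 13.1, 12.6, 12.0 and 12.4 on the 48 h arrays. Every 48 h array lay above every 24 h array, and each pool sampled at both times moved up. Pgant4 rose by 2.30 ± 0.23 (SE, n = 4 and 5; adjusted p = 0.00109), a further 4.93-fold after a rise of 7.11 ± 0.21 on the first day. The other 9 tested members of its family did not pass the test, with differences from -0.33 for Pgant7 to 0.18 for Pgant8. CG2975, which the annotation lists under the synonym dC1GalT4 of the core 1 galactosyltransferase family, the next step in building such glycans, read 5.21 to 5.78 at 24 h and 6.37 to 7.50 at 48 h. CG2975 rose by 1.49 ± 0.22 (adjusted p = 0.00506).

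LysS, a lysozyme gene, was at the array floor of 2.078 on all 5 arrays at 0 h. LysS read 2.94, 3.28, 3.23, 3.14 and 6.23 at 24 h and 8.78, 9.28, 5.13 and 8.64 at 48 h. The 24 h array of array 5 was high among its group and the 48 h array of array 3 was low, so the groups overlapped, although all 4 pools moved up. The rise was 4.19 ± 0.80 (adjusted p = 0.0137), and the adjusted p was 0.0574 without 48 h array 4. LysS was also at 2.078 on every head and antenna array at both times. It was the only 1 of 3 matched lysozyme genes that passed the filter.

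Several genes that were near or below the level of 4 at 24 h stood above it at 48 h. CG34256 read 3.94, 3.03, 4.29, 3.73 and 5.29 at 24 h and 7.15, 6.35, 5.59 and 6.63 at 48 h, a rise of 2.37 ± 0.38 (adjusted p = 0.00714). CG10336 read 3.44, 2.81, 3.43, 4.79 and 4.95 and then 6.55, 6.29, 5.83 and 6.23, a rise of 2.34 ± 0.37 (adjusted p = 0.00612). Neither gene has a role given here, and in both the arrays of the 2 times were separate. Cyt-c1L, a relative of the complex III subunit cytochrome c1, read 2.80, 3.42, 3.30, 3.21 and 4.15 and then 6.45, 5.27, 4.81 and 5.69, a rise of 2.18 ± 0.31 (adjusted p = 0.00503). The spindle orientation gene mud was below 4 on every 24 h array (2.66 to 3.63) and at 4.44 to 5.50 at 48 h, at least 1.83-fold higher (fitted rise 1.76 ± 0.25, adjusted p = 0.00496). The rise of mud was seen on 1 of its 3 probe sets, while the other two sat at the array floor. LysS, CG34256, CG10336, Cyt-c1L, mud and CG6280 passed the filter only through their 48 h arrays, so their differences are taken against values at or near background. CG6280 rose by 1.93 ± 0.28 and the noncoding gene CR43790 by 1.87 ± 0.32 (adjusted p = 0.00496 and 0.00916).

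BthD, a selenoprotein gene, read 4.07 to 4.51 at 0 h. Its 24 h values were 6.22, 5.30, 5.45, 7.03 and 6.98 and its 48 h values 9.07, 8.06, 7.64 and 8.51. BthD thus rose on both days, by 1.87 ± 0.35 on the first (adjusted p = 0.00208) and by 2.12 ± 0.37 on the second (adjusted p = 0.0104). Dtd, a D-aminoacyl-tRNA deacylase gene, rose by 1.53 ± 0.22 from 8.74 to 9.60 at 24 h to 10.04 to 10.98 at 48 h (adjusted p = 0.00496). Srg1 rose by 1.48 ± 0.23, from 6.35 to 6.85 to 7.39 to 8.76 (adjusted p = 0.00572). The rise of CG4269 by 1.82 ± 0.41 (adjusted p = 0.0283) was not called on dropping any 1 of 24 h arrays 1 and 3 or 48 h arrays 1, 2 and 4 (adjusted p from 0.0561 to 0.0955). All other rises of this paragraph stayed called after dropping any 1 of the 9 arrays. So did those of Pgant4, CG2975, CG34256, CG10336, Cyt-c1L, mud, CG6280 and CR43790. The filter on dim signals was set with all palp arrays and was not redone in these fits. Only the 48 h arrays of mud reached 4, so without any 1 of them mud would not have passed a filter redone. Its call in those fits therefore rests on the filter set with all arrays.

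**Figure D2:**
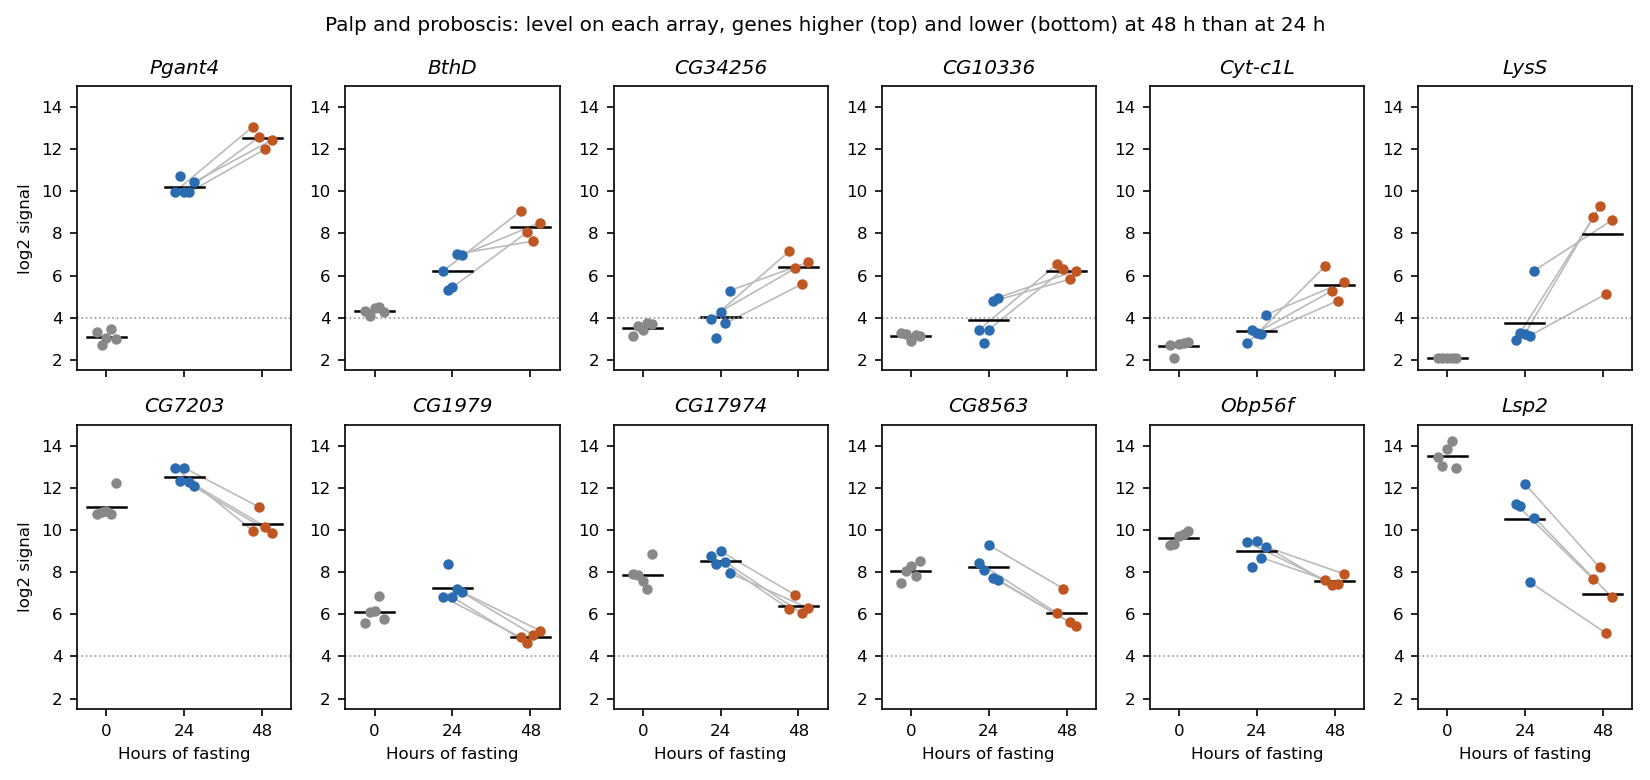
log2 signal (y axis) on each palp and proboscis array at 0, 24 and 48 h (x axis) for 6 genes that rose (top row) and 6 that fell (bottom row) between 24 h and 48 h. Points are arrays, black bars are group means, grey lines join the arrays of 1 pool at 24 h and 48 h, and the dotted line marks the filter level of 4; LysS and Lsp2 are the ones whose 24 h and 48 h arrays overlap.

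Genes of ribosome biogenesis were higher at 48 h. All 35 on the list were tested, and 11 rose and none fell, where 2.15% of all features rose. The median difference of the list was 0.405, against 0.0453 over all features, and all 35 differences were positive, from 0.07 to 0.91. Fib, the methyltransferase of box C/D small nucleolar ribonucleoproteins, read 8.63, 8.91, 8.97, 8.87 and 8.91 at 24 h and 9.98, 9.72, 9.64 and 9.72 at 48 h. Its arrays were separate between the times and it rose by 0.91 ± 0.15 (adjusted p = 0.00927). Nop56, the core protein of the same particles, rose by 0.73 ± 0.17 (adjusted p = 0.0319). Nop60B, the dyskerin pseudouridine synthase, and NHP2, its partner in box H/ACA particles, rose by 0.67 ± 0.14 and 0.62 ± 0.15 (adjusted p = 0.0173 and 0.0351). Among RNA polymerase I subunits, Polr1C rose by 0.51 ± 0.07 and Polr1B by 0.64 ± 0.17 (adjusted p = 0.00496 and 0.0488), while Polr1A differed by 0.58 ± 0.17 without passing. Rrp4, a subunit of the RNA exosome, rose by 0.89 ± 0.23, and the nucleolar protein gene mbm by 0.82 ± 0.20 (adjusted p = 0.0439 and 0.0334). The remaining calls were wcd (0.66), the DEAD-box helicase gene pit (0.60) and Bka (0.41).

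The number of called members of this list moved with single arrays more than their sizes did. It was 4 without 24 h array 1 or 3 or without 48 h array 1 or 2, it was 2 without 48 h array 4, and it was 8 or 9 without each of the other four. The median stayed between 0.387 and 0.473 in these fits. With the pool as a block, 6 members were called, and the calls of Rrp4 and mbm were lost (adjusted p = 0.0866 and 0.0653). Rrp4 was also lost after dropping any 1 array other than 24 h array 4 (adjusted p from 0.0524 to 0.149), and mbm on dropping any 1 of 24 h arrays 1 and 3 or 48 h arrays 1, 2 and 4 (0.0612 to 0.121). On the first day 1 member rose and 7 fell, with a median of -0.206, where 11% of all features rose and 12.5% fell. Both days use the 24 h arrays, so a low value on those arrays moves the 2 days in opposite directions. Mitochondrial ribosomal protein genes gave no call, with 69 tested, 68 positive and a median of 0.229, and 2 rose when 48 h array 1 was left out. On the first day 20 of these had fallen, with a median of -0.305, where 12.5% of all features fell. Genes of cytosolic ribosomal proteins had no call among 34 tested and a median of 0.0508.

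**Figure D3:**
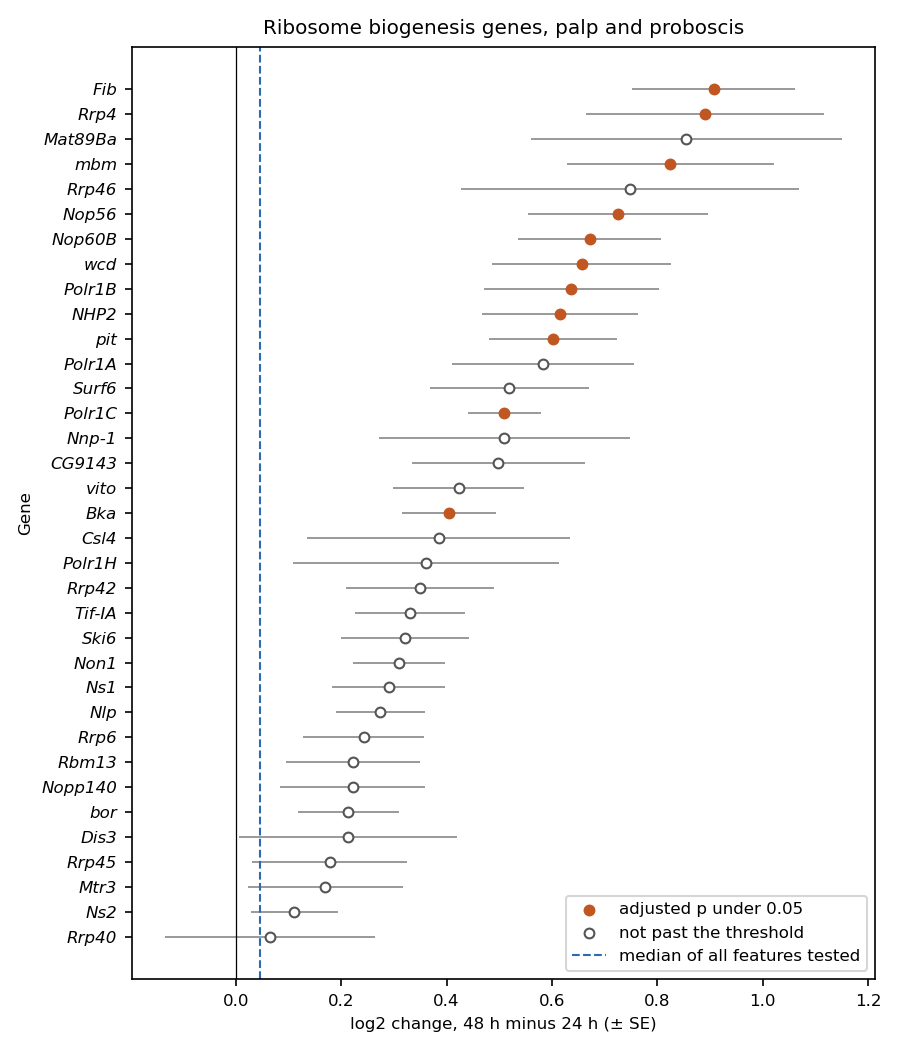
Difference between 48 h and 24 h in log2 signal with its standard error (x axis) for the 35 ribosome biogenesis genes (y axis). Filled points passed an adjusted p of 0.05, and the dashed line is the median over all features, 0.0453; all 35 points lie above 0.

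Taste receptors gave few calls. Among bitter receptors 8 of 12 passed the filter, and 1, Gr93b, rose, where 2.15% of all features rose. Gr93b read 5.36, 4.59, 5.86, 5.82 and 5.02 at 24 h and 6.59, 6.28, 6.39 and 6.08 at 48 h. Its arrays were separate, with a rise of 1.00 ± 0.25 (adjusted p = 0.0429). The call was lost with the pool as a block (adjusted p = 0.101) and on dropping any 1 of 24 h arrays 1 and 5 or any 48 h array (0.0758 to 0.122). Gr33a and Gr47a had larger differences and wider errors, 1.44 ± 0.43 and 1.32 ± 0.52 (adjusted p = 0.0800 and 0.178). Gr66a, the co-receptor that marks bitter neurons, differed by 0.14 ± 0.14. All 8 differences were positive, with a median of 0.826. Most of these genes were close to the filter level, where an array resolves differences poorly.

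Of 24 listed taste channels of the ionotropic, ppk and Trp families, 10 were tested and none passed, with 9 positive and a median of 0.588. The fatty acid taste receptor gene Ir56d (0.79 ± 0.26), the water receptor ppk28 (0.88 ± 0.42) and TrpA1 (0.75 ± 0.24) were among the higher values, all with adjusted p over 0.1. The sugar receptor Gr64f differed by 0.04 ± 0.19, and Gr5a, the trehalose receptor, was too dim to test. None of the 8 palp odorant receptor genes was called (median 0.0835), and Orco differed by -0.12 ± 0.11. The neuropeptide receptor gene Pdfr, the receptor of the clock peptide PDF, rose by 1.23 ± 0.24 from 4.602 to 5.57 at 24 h to 6.09 to 6.67 at 48 h (adjusted p = 0.0158). Without 48 h array 1 or 4, Pdfr had an adjusted p of 0.0566 or 0.0538. It was the 1 call among 8 receptors of that list, where 4.22% of all features were called. Neuron markers averaged 8.01 to 8.51 at 24 h and 7.98 to 8.345 at 48 h.

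Odorant-binding proteins are small carriers of hydrophobic ligands, secreted by the support cells of taste and smell hairs and by other tissues. Of 48, 34 were tested, and 4 fell and none rose, where 2.07% of all features fell (median -0.179, 24 negative). Obp56f read 9.41, 8.25, 9.46, 8.69 and 9.20 at 24 h and 7.62, 7.38, 7.43 and 7.92 at 48 h. Its arrays were separate and it fell by 1.42 (SE 0.24, adjusted p = 0.00927), a call kept after dropping any 1 of the 9 arrays. Obp99b read 12.5, 11.4, 11.4, 11.9 and 11.4 and then 9.64, 10.7, 10.8 and 10.2, a difference of -1.37 ± 0.30 (adjusted p = 0.0261). Obp56b fell from 4.54 to 7.14 at 24 h to 3.41 to 4.11 at 48 h, a difference of -2.09 ± 0.50 (adjusted p = 0.0341). The fourth, Obp93a, differed by -0.76 ± 0.16.

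These calls were not all stable. Obp99b was lost on dropping any 1 of 24 h array 1 and 48 h arrays 1 and 4 (adjusted p from 0.0560 to 0.0896). Obp56b was lost with the pool as a block (0.0630) and on dropping any 1 of 24 h arrays 1, 3 and 4 or any 48 h array (0.0501 to 0.101). The list count was 1 without 24 h array 1, 48 h array 1 or 48 h array 4, and 2 without 24 h array 3. Markers of the support cells of sensory hairs, 3 of 5 of them tested, averaged 6.97 to 8.54 at 24 h and 5.95 to 7.06 at 48 h. The second highest average at 24 h was 7.17. Of the tested markers, lush and Obp19a are also on the odorant-binding protein list, so these averages are not separate from that list. In whole tissue, fewer cells of a type and less RNA per cell cannot be told apart, and the part of those cells in the falls was not tested.

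Part of the cuticle genes fell. Of 104 cuticle protein genes, 32 were tested, and 6 fell and 1 rose, where 2.07% and 2.15% of all features did. The median was -0.551, against 0.0453 over all features, and 23 differences were negative. Cpr100A read 7.01 to 9.61 at 0 h, 10.9, 10.6, 11.3, 10.6 and 10.6 at 24 h and 9.26, 9.31, 9.20 and 8.82 at 48 h. It had risen by 2.78 ± 0.36 on the first day (adjusted p = 0.000168), and on the second the separate arrays gave -1.64 ± 0.38 (adjusted p = 0.0319). Cpr60D differed by -1.38 ± 0.32, TwdlT by -0.99 ± 0.22 and Cpr47Ee by -0.96 ± 0.18 (adjusted p = 0.0289, 0.0279 and 0.0128). Lcp65Ag3 and Cpr49Ae fell by less, with differences of -0.86 ± 0.21 and -0.58 ± 0.11. The rise was in Cpr66D, 1.10 ± 0.24 (adjusted p = 0.0240), whose 24 h array of array 2 read 9.02 and the other four 7.69 to 8.03.

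Outside the list, obst-B, which encodes a chitin-binding protein, fell from 5.47 to 7.34 at 24 h to 3.59 to 5.38 at 48 h (-1.88 ± 0.44, adjusted p = 0.0316). Vajk3 read 5.81 to 10.1 at 0 h, 11.4, 10.7, 11.6, 10.4 and 10.2 at 24 h and 8.35, 9.02, 7.52 and 7.07 at 48 h, a difference of -2.87 ± 0.73 (adjusted p = 0.0449). At 0 h, array 5, the only array of pool 9, was the highest for Vajk3 and Cpr100A. With the pool as a block, 13 cuticle genes fell and 1 rose. Without an array the number of cuticle genes that fell was 2 (24 h array 1 or 3, 48 h array 4), 3 (48 h array 1), 12 (24 h array 2), or 4 to 7 (the other four). Vajk3 lost its call after dropping any 1 of the 9 arrays (adjusted p from 0.0522 to 0.150). Cpr100A, Cpr66D and obst-B lost theirs on dropping any 1 of 24 h arrays 1 and 3 or 48 h arrays 1, 3 and 4, and Cpr100A and Cpr66D also without 48 h array 2 (up to 0.113, 0.0838 and 0.108). The call of Cpr60D was lost with the block (0.0577) and on dropping any 1 of 24 h arrays 1 and 3 or 48 h arrays 1, 3 and 4 (0.0593 to 0.0924).

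Some of the largest and most even falls were in genes with no role given here. CG7203 read 12.95, 12.3, 12.9, 12.3 and 12.1 at 24 h and 9.96, 11.1, 10.2 and 9.85 at 48 h, a difference of -2.26 ± 0.34 (adjusted p = 0.00520). CG1979 read 6.83, 8.40, 6.82, 7.18 and 7.07 and then 4.90, 4.62, 5.01 and 5.23 (-2.32 ± 0.32, adjusted p = 0.00496). The arrays of the times were separate in both, and 24 h array 2 was the high array for CG1979. CG17974 differed by -2.14 ± 0.30 and CG8563 by -2.16 ± 0.39 (adjusted p = 0.00496 and 0.0111). All of these 4 stayed called after dropping any 1 of the 9 arrays. CG7214 (-1.59 ± 0.35, adjusted p = 0.0271) was lost on dropping any 1 of 24 h arrays 1 and 3 or 48 h arrays 1, 3 and 4 (0.0648 to 0.0964). CG15023 was below 4 on every 48 h array (2.078 to 2.77) and read 6.92, 3.67, 7.24, 5.47 and 5.30 at 24 h, so it was at least 3.30-fold lower at 48 h. Its fitted difference of -3.32 ± 0.70 (adjusted p = 0.0219) was lost on dropping any 1 of 24 h arrays 1 and 3 or 48 h arrays 1 and 4 (0.0549 to 0.0808). CG15023 passed the filter only through its 24 h arrays, since at 0 h only array 5 reached 4 (4.83). Its difference is therefore taken against values at or near background.

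Lsp2, Lsd-1, Dgat2 and CRAT, each picked as a called member of 1 of 3 lists, fell. Lsp2 was the 1 call among 5 tested fat body markers, with 2 positive differences and a median of -0.0987. The synthesis list of Dgat2, with 13 tested, had 7 positive differences and a median of 0.006. Over all features, 4.22% were called and the median was 0.0453. Lsp2, a hexamerin that stores amino acids in the fat body, read 12.9 to 14.2 at 0 h. It read 11.2, 11.1, 12.2, 7.53 and 10.6 at 24 h and 7.66, 8.22, 5.11 and 6.80 at 48 h. The low 24 h array of array 4 fell within the 48 h range, but Lsp2 was lower at 48 h in each of the 4 pools, with a difference of -3.59 ± 0.81 (adjusted p = 0.0283). Lsd-1, the perilipin that coats lipid droplets, had fallen by 2.15 (SE 0.27) on the first day and fell from 9.94 to 10.9 at 24 h to 8.49 to 9.77 at 48 h (-1.14 ± 0.28, adjusted p = 0.0409). Dgat2, which catalyses the last step of triglyceride synthesis, read 8.65, 8.35, 8.70, 9.01 and 8.71 at 24 h and 7.52, 7.59, 7.82 and 7.54 at 48 h (-1.07 ± 0.15, adjusted p = 0.00496), the 1 call among 13 genes of fatty acid and triglyceride synthesis. CRAT, the carnitine acetyltransferase gene, differed by -0.53 ± 0.11 (adjusted p = 0.0209).

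Of 16 lipolysis and fatty acid oxidation genes, 2 fell (Lsd-1 and CRAT) and none rose, where 2.07% and 2.15% of all features did. The median was -0.306, against 0.0453 over all features, and 14 were negative. The lipase genes bmm and mag, which had risen by 1.57 ± 0.12 and 6.68 ± 0.29 on the first day, differed by 0.14 ± 0.12 and -0.22 ± 0.30 on the second. Their 48 h levels were 13.6 to 14.1 and 8.33 to 9.46. The acyl-CoA synthetase gene hll, of the bubblegum type, read 10.6, 10.4, 10.3, 10.2 and 10.1 at 24 h and 9.34, 9.05, 9.24 and 9.04 at 48 h. It fell by 1.14 (SE 0.18, adjusted p = 0.00591) from a level that the first day had raised by 6.97 ± 0.17. The calls of Dgat2 and hll stayed after dropping any 1 of the 9 arrays. Lsd-1 was lost on dropping any 1 of 24 h arrays 1, 3 and 4 or 48 h arrays 1, 2 and 4 (adjusted p from 0.0592 to 0.110). CRAT was lost on dropping any 1 of 24 h array 3 and 48 h arrays 1, 2 and 4 (0.0501 to 0.0865), and Lsp2 on dropping any 1 of 24 h arrays 1 and 3 or 48 h arrays 1, 3 and 4 (0.0569 to 0.092). The list count was 0 without 24 h array 3 or 48 h arrays 1 or 4, and 1 without 24 h arrays 1 or 4 or 48 h array 2. Fat body markers averaged 6.11 to 7.04 at 24 h, and 7.41 on 48 h array 1 against at most 6.14 on the other 48 h arrays. Lsp2 is itself on that marker list, whose yolk protein gene Yp1 read 11.4 on 48 h array 1 and 4.53 to 4.87 on the other 48 h arrays. At 24 h, Yp1 read 9.46 on array 2, 7.55 on array 5 and 4.28 to 5.29 on the others.

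CCHa2, a peptide gene of fat body and gut that is known to respond to nutrients, read 12.5 to 12.9 at 0 h, 11.25, 10.53, 10.97, 10.995 and 11.03 at 24 h and 10.1, 10.4, 9.73 and 10.2 at 48 h. Its arrays were separate, and it fell on both days, with differences of -1.82 ± 0.15 and then -0.85 ± 0.16 (adjusted p = 3.41e-06 and 0.0116). The call held after dropping any 1 of the 9 arrays. CCHa2 was the 1 call among 18 neuropeptide genes, where 4.22% of all features were called. ninaD, a scavenger receptor for carotenoid uptake, fell from 6.38 to 7.68 at 24 h to 3.68 to 5.71 at 48 h (-1.92 ± 0.46, adjusted p = 0.0329). ninaD was lost on dropping any 1 of 24 h arrays 1, 3 and 5 or 48 h arrays 1, 3 and 4 (0.0538 to 0.0841).

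Among detoxification genes, 9 of 68 tested cytochromes P450 fell and 2 rose, where 2.07% and 2.15% of all features did. The median was -0.109, against 0.0453 over all features, with 46 negative. Cyp4e3 had risen by 1.35 ± 0.20 on the first day. It read 10.2, 9.78, 10.8, 10.7 and 10.8 at 24 h and 9.25, 9.21, 9.32 and 9.26 at 48 h, with separate arrays and close agreement among those at 48 h (-1.20 ± 0.21, adjusted p = 0.0110). Cyp6a14 fell by 0.76 (SE 0.12, adjusted p = 0.00714). The others that fell were Cyp28c1 (-0.74), Cyp309a2 (-0.73), Cyp4d20 (-0.70), Cyp6a21 (-0.67), Cyp305a1 (-0.60), Cyp4d8 (-0.50) and Cyp9b2 (-0.34). Cyp4ac3 and Cyp6t3 rose, by 1.33 ± 0.31 and 0.75 ± 0.17 (adjusted p = 0.0320 and 0.0316). Cyp4ac3 was lost on dropping any 1 of 24 h arrays 1, 3 and 4 or 48 h arrays 1, 2 and 4 (0.0621 to 0.100). The number that fell was 4 without 48 h array 4 and 7 to 11 without each other array, and no P450 rose without 24 h arrays 1 or 3 or 48 h array 1.

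GstE2 was the 1 call among 30 glutathione transferases, where 4.22% of all features were called. It read 9.81, 9.49, 9.41, 9.49 and 9.40 at 24 h and 8.86, 8.87, 8.86 and 8.75 at 48 h, a difference of -0.68 ± 0.09 (adjusted p = 0.00496) that held after dropping any 1 of the 9 arrays. MtnB, a metallothionein gene, fell from 5.68 to 7.20 to 3.81 to 5.47 (-1.76 ± 0.44, adjusted p = 0.0408). That call was lost on dropping any 1 of 24 h arrays 1, 3 and 5 or 48 h arrays 1, 3 and 4 (0.0599 to 0.133).

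**Figure D4:**
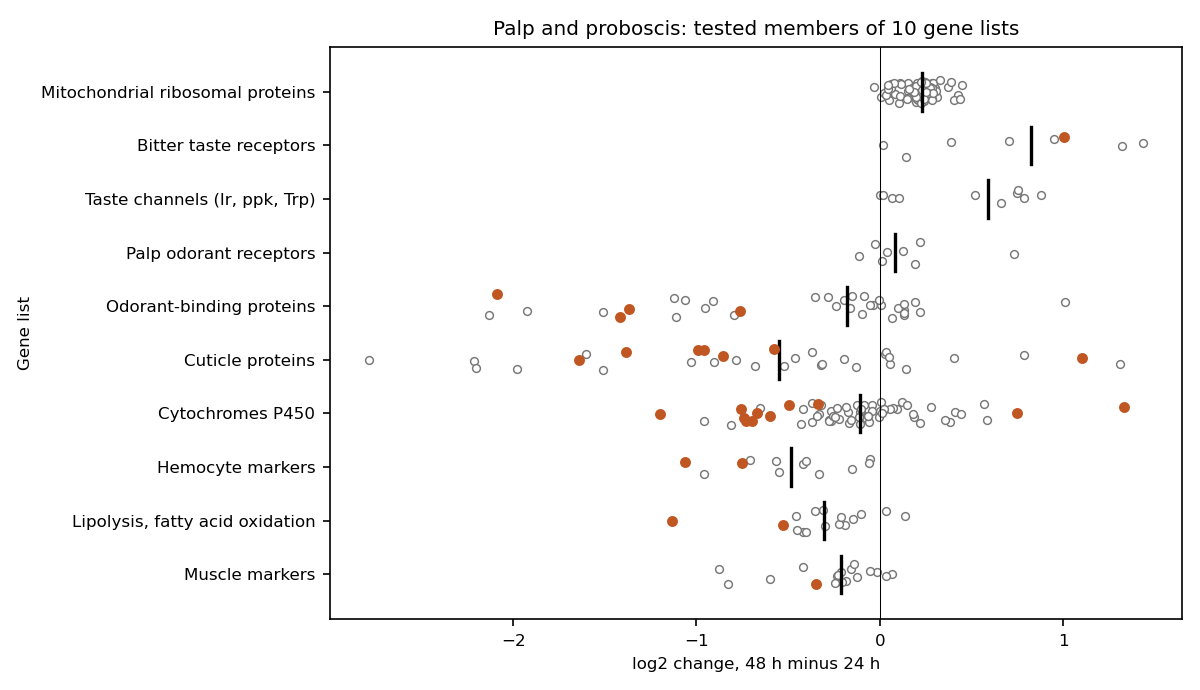
Difference between 48 h and 24 h in log2 signal (x axis) for every tested member of 10 gene lists (y axis). Filled points passed an adjusted p of 0.05, open points did not, and the black bar is the list's median, for example -0.551 for cuticle proteins, -0.484 for hemocyte markers and 0.826 for bitter taste receptors.

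Of 12 hemocyte markers tested, 2 fell, where 2.07% of all features fell. All 12 differences were negative, with a median of -0.484 against 0.0453 over all features. Sr-CI, a scavenger receptor of macrophage-like cells, read 10.7, 10.7, 10.6, 10.6 and 10.9 at 24 h and 10.1, 9.71, 9.94 and 10.02 at 48 h (-0.75 ± 0.12, adjusted p = 0.00612), and its call held after dropping any 1 of the 9 arrays. PPO1, a prophenoloxidase of crystal cells, fell by 1.06 ± 0.27 (adjusted p = 0.0439) after -1.31 ± 0.25 on the first day. PPO1 was lost on dropping any 1 of 24 h arrays 1, 4 and 5 or any 48 h array (0.0696 to 0.113). The list count was 4 without 24 h array 2, 3 without 24 h array 3, and 1 without each of the others, and with the pool as a block it was 5. The mean of the 12 markers was 9.67 to 10.4 at 24 h and 9.38 to 9.67 at 48 h. Of 14 immune effector genes none was called, with a median of -0.315 and a range from -2.13 for Drs to 2.43 for AttD; up to 2 passed when 24 h array 2 or 3 or 48 h array 2 was left out.

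Muscle markers gave 1 call among 18, where 4.22% of all features were called. Mlc2, a myosin light chain gene, read 13.3 to 13.6 at 24 h and 13.1 to 13.2 at 48 h (-0.35 ± 0.08, adjusted p = 0.0283), and 16 of 18 differences were negative (median -0.209). The call was lost with the pool as a block (0.0644) and on dropping any 1 of 24 h arrays 1, 3 and 4 or 48 h arrays 1, 2 and 4 (0.0554 to 0.105). Of 8 digestive enzyme genes tested, 1 fell, where 2.07% of all features did. That was the maltase gene Mal-B1 (-0.42 ± 0.10, adjusted p = 0.0366). It was lost after dropping any 1 array other than 24 h array 2 and 48 h array 3 (0.0671 to 0.121).

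Genes of nutrient signalling that changed on the first day gave few calls on the second. InR, the insulin receptor gene, read 7.37 to 8.07 at 0 h, 9.87, 9.47, 9.54, 9.51 and 9.82 at 24 h and 10.9, 9.53, 9.89 and 9.96 at 48 h. The 24 h and 48 h arrays overlapped, and the difference of 0.44 ± 0.24 did not pass (adjusted p = 0.360), after a rise of 2.01 ± 0.23 on the first day. None of 10 insulin and FOXO genes was called, with all 10 differences positive and a median of 0.189, and 2 rose when 24 h array 2 was left out. Of these genes, 4 had risen on the first day, where 11% of all features rose. ImpL2, which encodes a binding protein for insulin-like peptides, differed by 0.49 ± 0.17 and foxo by 0.05 ± 0.20. None of 22 autophagy genes was called (median 0.126, 21 positive), and 2 rose when 24 h array 2 was left out and 1 without 48 h array 2. Of the autophagy genes, 11 had risen on the first day, against the same 11% of all features. Atg8a differed by 0.03 ± 0.07. AkhR, the adipokinetic hormone receptor gene, was lower in all 4 pools (-0.42 ± 0.15, adjusted p = 0.140), and it was called with the pool as a block (-0.52, adjusted p = 0.0477).

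The lists of proteasome subunits, glycolysis, trehalose and glycogen metabolism, amino acid breakdown, oxidative phosphorylation, lysosome and V-ATPase, heat shock proteins, clock genes and cell cycle genes gave no call either. Their medians ran from -0.0972 for trehalose and glycogen metabolism to 0.174 for the proteasome. Leaving out 1 array gave 1 proteasome call (24 h array 2) and 1 oxidative phosphorylation call (24 h array 3), and the pool as a block gave 1 call each in amino acid breakdown and cell cycle. Among the genes followed whatever their result, tobi, a glucosidase gene responsive to adipokinetic hormone, differed by -0.89 ± 0.44, fit by -1.17 ± 0.62, Treh, the trehalase gene, by -0.05 ± 0.08 and Sesn by 0.02 ± 0.11. A difference that did not pass is not shown to be absent: the standard errors of these genes ran up to 0.62.

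Whether the second day differed from the first was tested in the same fit, as the change from 24 h to 48 h minus the change from 0 h to 24 h. It differed for 377 features (4.17%), 185 positive (2.05%) and 192 negative (2.13%). The count was 172, 240, 248, 232 and 195 without 24 h arrays 3 and 5 and 48 h arrays 2, 3 and 4 in turn. The lowest values were of genes that rose on the first day and then stopped or turned. hll gave -8.11 (6.97 and then -1.14), mag -6.91 (6.68 and then -0.22) and CG8736 -6.80 (4.92 and then -1.88), with adjusted p of 4.33e-09, 1.03e-05 and 0.0271. CG8736 read 10.1 on 0 h array 5 and 4.55 to 4.96 on the other 0 h arrays. The fall of CG8736 on the second day was not called in the main fit (adjusted p = 0.299). It was also not called after dropping any 1 of the 9 arrays (0.309 to 0.524), while with the pool as a block it was (-1.83, adjusted p = 0.0115).

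The highest values were of genes that fell on the first day. phu, an alkaline phosphatase gene, read 10.7 to 12.0 at 0 h, 6.69, 2.52, 7.54, 6.96 and 7.08 at 24 h and 8.65, 10.1, 8.41 and 9.98 at 48 h. The 24 h array of array 2 was far below the rest. The day 2 minus day 1 value of phu was 8.20 ± 1.38 (adjusted p = 0.00642), and its difference between 48 h and 24 h was 3.13 ± 0.83 (adjusted p = 0.0514), or 0.00857 without 24 h array 2. CAH5, a carbonic anhydrase gene, had a value of 6.31 (-4.82 and then 1.49) and CG17290 one of 4.45 (-5.15 and then -0.70). CAH5 read 2.63 to 6.65 at 24 h, and its difference between 48 h and 24 h was not called (adjusted p = 0.2455). CG17290 read 7.235 to 9.31 at 0 h, 2.60 to 4.43 at 24 h and 2.09 to 2.94 at 48 h. It was already near the array floor at 24 h and could not fall as far again. Its positive value therefore cannot show that its fall slowed on the second day. Pgant4 had -4.81 (adjusted p = 1.78e-05), so its second rise was smaller than its first, and Fib had 0.89 (adjusted p = 0.0718).

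In head, the same interval changed 124 of 9083 features (1.37%) and in antenna 9 of 8986 (0.1%). Of the palp calls, 355 were tested in head, and 52 of them were also called there, which is 52 of the 124 calls of head. The difference in the change between palp and head, from 1 fit over all arrays, passed for 30 of 9544 features (0.314%), and that between palp and antenna for 34 of 9472 (0.359%). With the pool within each body part as a block these counts were 62 and 93. The body parts share pools, and neither fit took account of that sharing. The palp and antenna count was 55 without palp 24 h array 2 and 54 without 24 h array 4.

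LysS had values of 4.19 ± 0.60 against head and 4.19 ± 0.58 against antenna (adjusted p = 2.89e-05 and 1.47e-05). Since it was at the floor on every head and antenna array, these restate its change in palp, with errors made smaller by the constant floor values, and a change below background in the other parts would not be seen. CG10336 (2.20 ± 0.30, adjusted p = 1.03e-05) and CG34256 (2.36 ± 0.44, adjusted p = 0.00217) followed against antenna, where their means were 3.07 and 3.20 for CG10336 and 2.72 and 2.74 for CG34256 at 24 h and 48 h. Every antenna array was below 4 for both genes (at most 3.42 and 3.16), so these values largely restate their rises in palp. Against head, the highest value and the third came from changes in head. Fst went from a mean of 7.53 to 3.14 in head and was at 2.078 on all 9 palp arrays (4.39 ± 1.00, adjusted p = 0.0238), and without palp 48 h arrays 1 or 4 its adjusted p was 0.0541 or 0.0516. CG13056 went from 7.65 to 4.37 in head, with palp means of 2.24 and 2.27 (3.30 ± 0.71, adjusted p = 0.0156).

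The lowest value against head was that of a5, a gene named for its expression in the antenna, at -5.57 ± 0.98 (adjusted p = 0.000965). Its palp mean went from 7.96 to 4.69, with 48 h arrays from 2.88 to 7.90, its head mean from 2.79 to 5.10, and its antenna mean was 14.3 at both times. The change of a5 within palp was not called (adjusted p = 0.0826). CG12111 (-4.002 ± 0.55, adjusted p = 2.89e-05) went from 3.06 to 6.24 in head; in palp it was above 4 only on 24 h array 2, at 6.26, and without that array its value was -3.20. CG15023 had -3.27 ± 0.53 against head and -3.33 ± 0.52 against antenna. It was near the floor in both of those parts at both times, so these values too restate its fall in palp. CG1552 (-3.001 ± 0.68, adjusted p = 0.0172) and GABA-B-R3, a metabotropic GABA receptor gene (-2.56 ± 0.52, adjusted p = 0.00651), were lowest against antenna after it. Their palp means went from 7.28 to 5.31 and from 6.20 to 4.17, while their head means were 13.2 to 13.3 and 11.5 to 11.7. Neither change within palp was called in the main fit (adjusted p = 0.155 and 0.1095). Their antenna means went the other way, from 4.98 to 6.02 and from 8.36 to 8.90. The difference of CG1552 from antenna was not called on dropping any 1 of 24 h array 1 and 48 h arrays 2 and 3 (0.0602 to 0.0683). The photoreceptor markers, which head tissue would carry, averaged 9.95 to 11.7 at 24 h and 10.4 to 10.9 at 48 h, and the part of head tissue in these 2 results was not tested.

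**Figure D5:**
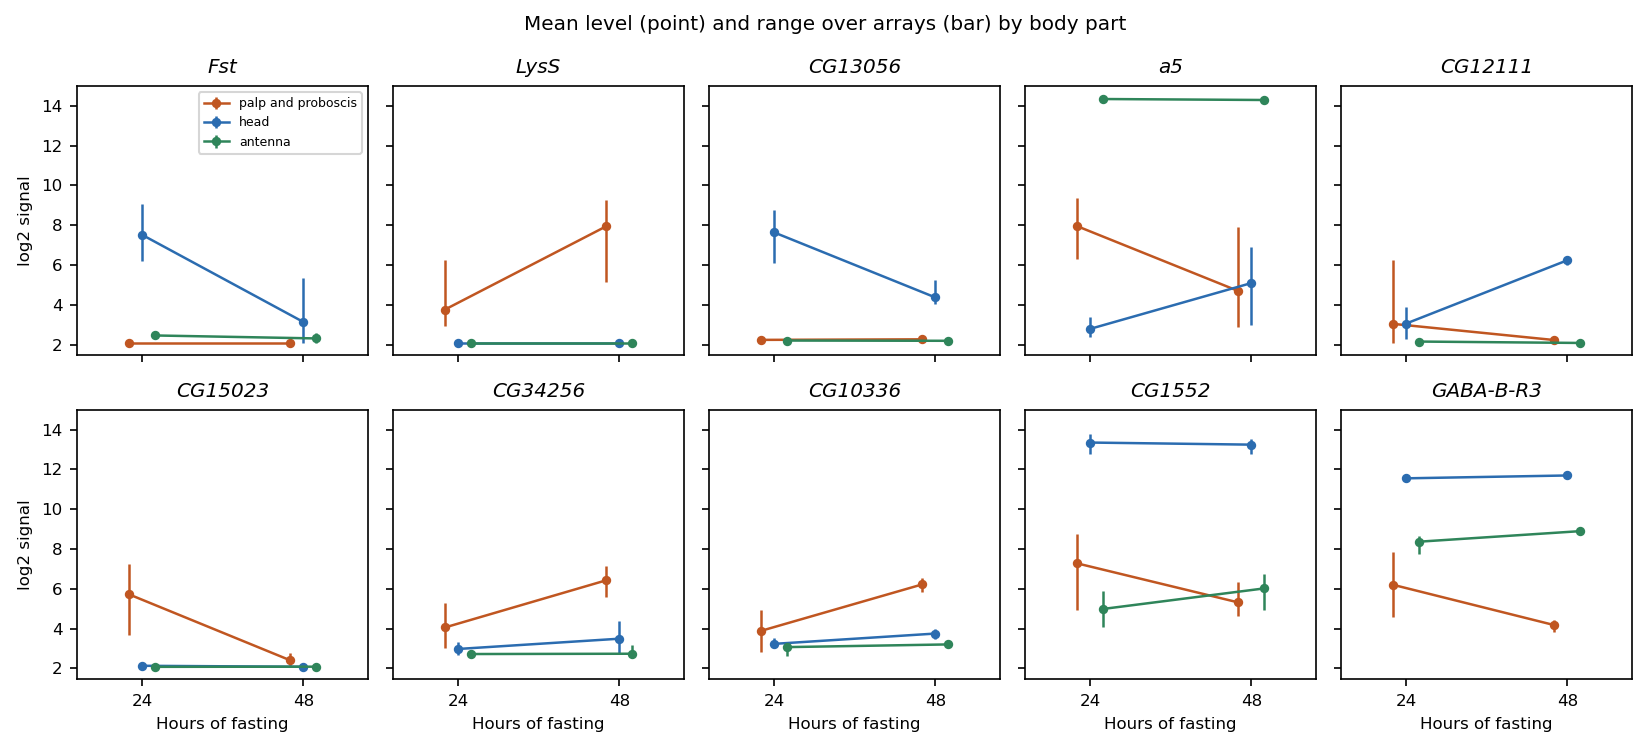
Mean log2 signal (points, y axis) and range over arrays (bars) at 24 h and 48 h (x axis) in palp and proboscis, head and antenna for the 10 genes at the extremes of the differences between body parts. LysS went from a mean of 3.77 to 7.96 in palp and stayed at 2.078 in head and antenna, while the head means of Fst and CG13056 went from 7.53 to 3.14 and from 7.65 to 4.37.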

How the data were processed

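Per the labels, the arrays were hybridised with biotin-labelled cDNA (FL-Ovation kit) that had been amplified by NuGEN Ovation from RNeasy-purified total RNA. The authors deposited log2 signals made with GCRMA, per the submitters' processing notes; no version is given in those sources. All arrays share 1 distribution (largest difference between sorted arrays 0.033), so a change in total RNA cannot be read. Levels ran from 2.078 to 15.4. The number of arrays limits the precision.

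Of 18952 probe sets, 183 controls were left out. Of the rest, 4720 had no gene and 402 several, and these features count in totals without a name. For each of 11983 genes the probe set with the highest mean over all 56 arrays stood for it, giving 17105 features; 13544 of 13647 single-gene probe sets matched RefSeq names. A feature was tested at a log2 signal of at least 4 on at least 4 of the 14 palp arrays. limma 3.58.1 (R 4.3.3) was fitted with 3 group means, two-sided moderated tests and Benjamini-Hochberg adjustment at 0.05; differences between body parts came from 12 group means over 56 arrays. "At least" folds are against the level of 4. Figures used matplotlib 3.10.9 and pandas 2.3.3 in Python 3.11.15. The script was tested on simulated data.

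The design text says that each pool was sampled at 0, 24 and 48 h, so pool numbers pair the arrays; the main fit had no block. Deviations at 24 and 48 h of 1 pool correlated by -0.051, 0.324, -0.041 and 0.093 in pools 4, 6, 7 and 8, with a mean of 0.081 against -0.022 for other pools. The p-values of the main fit rest on the spread between arrays within a time, over 0, 24 and 48 h, and treat arrays of 1 pool as independent.

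Members, gene lists and tests were chosen with earlier results of these data known. Named are the 12 largest rises and 12 largest falls among called genes with separate arrays, up to 3 called members per list, 25 symbols whatever their result (5 matched no probe set) and the 3 highest and 3 lowest values of the other contrasts. Other list members are named after their values were seen. Taken by a symbol pattern or synonym in error, 2 cyclophilin genes and 1 synonym were left out of the lists. No column of the deposited table was unused.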

Additional observations from a re-analysis of the deposited data

Results flagged for a closer look

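Single arrays stood far from their group for 16 values among 138 groups of 4 or 5 arrays, where chance gives about 1 in 20. Of these, 5 were on 24 h array 2: AkhR at 10.7 (nearest array 11.04), CG1979 at 8.40 (7.18), Cpr66D at 9.02 (8.03), CR43790 at 3.29 (4.72) and phu at 2.52 (6.69). On 24 h array 5, CG2975 stood at 5.78, LysS at 6.23 and Sr-CI at 10.9. GstE2 stood at 9.81 on 24 h array 1 and Srg1 at 6.85 on 24 h array 4. At 48 h, bmm stood at 14.1 on array 1 and Gr66a at 7.60 on array 2. LysS at 5.13 and ninaD at 3.68 stood low on 48 h array 3, as did Cyp6a14 at 7.65 and GstE2 at 8.75 on 48 h array 4.

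The change from 24 h to 48 h differed between body parts, by a test of the difference over all arrays, for 10 genes at the extremes. Palp minus head was 4.39 for Fst, 4.19 for LysS and 3.30 for CG13056, and -5.57 for a5, -4.0 for CG12111 and -3.27 for CG15023. Palp minus antenna was 4.19 for LysS, 2.36 for CG34256 and 2.20 for CG10336, and -3.33 for CG15023, -3.0 for CG1552 and -2.56 for GABA-B-R3. For LysS, CG15023, CG34256 and CG10336 the arrays of the compared part were all below 4, so those values largely restate changes in palp.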

How the results depend on the processing

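The count of 381 was 225 with no filter on dim probe sets, 1765 with array weights 797 with a covariate for RNA integrity (the excess of 3′ over 5′ probe signal on control genes), 282 with the 9 arrays at 24 and 48 h alone, and between 352 and 561 under the other settings that kept all palp arrays. Leaving out 1 array gave 90 to 482. With the pool as a block it was 419 (176 rises, 243 falls), with 286 of the 381 among them. All 381 kept their sign wherever they were fitted, apart from the setting with every probe set tested, where signs were not compared. Array weights ran from 0.338 for 24 h replicate 2 to 5.56. The day 2 minus day 1 count of 377 was 231 with no filter, 399 with the block and 172 to 489 with 1 array left out. The palp minus head count of 30 was 62 with the block, 50 with no filter and 24 to 43 with 1 array left out. The palp minus antenna count of 34 was 93 with the block, 46 with no filter and 29 to 55 with 1 array left out. The cause of these moves was not tested. Over 69 named genes and 22 settings, 192 values lost and 27 gained the call, and 13 changed sign, all in 5 genes that had not passed. Gr64f was -0.0994 with cyclic loess scaling, -0.0025 with the block and -0.0403 with array weights. With 1 array left out, Gr64f ran from -0.1222 to 0.1496, foxo from -0.0276 to 0.1804, Sesn from -0.0406 to 0.0579, Atg8a from -0.0029 to 0.0753 and mag from -0.3381 to 0.0377. Of the genes called, none changed sign, and 19 of 48 were called in every setting. With the pool as a replicate block, Cpr60D (-1.41), Gr93b (0.93), mbm (0.73), Mlc2 (-0.36), Obp56b (-2.17) and Rrp4 (0.80) lost their calls, and AkhR (-0.52), CG8736 (-1.83) and GABA-B-R3 (-2.37) gained one; the block changed no other call among the named genes. The size of differences that involve signals near the floor of 2.078 is uncertain, and whether they are understated or overstated was not tested.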
